A study of Mus musculus with 9 samples.

Results

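Insulin-like growth factor 1 (Igf1), its receptors, the receptors' substrates and the IGF binding proteins were read on 9 whole-genome arrays of the mouse uterus at GD 3.5, the day before embryos attach. The members are 10 genes: the ligand Igf1, the receptors Igf1r and Insr, the substrates Irs1 and Irs2, and the binding proteins Igfbp2, Igfbp3, Igfbp4, Igfbp5 and Igfbp6. They were taken by name, as every probe set that the platform annotation assigns to only 1 of these genes, which gave 26 probe sets of 45037 and 10 genes of 18193. Igfbp4 had 6 probe sets, Igf1r had 5, Igf1 had 4, Insr had 3, Igfbp3 and Igfbp5 had 2 each, and Irs1, Irs2, Igfbp2 and Igfbp6 had 1 each. Of the 26, 6 had a mean below the median of all probe sets: Irs2, Igfbp2, 2 of Igf1r and 2 of Insr.

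The mice fell into 3 groups, with 3 arrays each. Double knockouts (Mig-6 d/d Erbb2 d/d) carried Pgr cre/+ with floxed Mig-6 and floxed Erbb2. Mig-6 d/d mice carried Pgr cre/+ with floxed Mig-6 alone. Control mice carried floxed Mig-6, or floxed Mig-6 and floxed Erbb2, without cre, and the labels do not say which control array had which genotype. All were females mated to C57BL/6 males, on a mixed background of C57BL/6 and 129P2/OlaHsd. The labels give an age of 2 weeks, while the methods describe older, adult females. Cre was driven by the progesterone receptor gene, so deletion is limited to cells that had expressed it, and RNA of more than 3 mice per genotype was pooled. Whether each array had its own pool is not stated, so p-values measure the spread between these arrays, which may be technical.

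IGF1 in the uterus is made mainly by stromal cells, where estrogen induces it, and acts on the epithelium as a growth signal. It binds the IGF1 receptor, a tyrosine kinase closely related to the insulin receptor, which passes the signal through the substrates IRS1 and IRS2 to the PI3K and MAP kinase pathways. IGF binding proteins hold IGFs outside the cell, lengthen their life and limit, or in some settings aid, their access to the receptor. Mig-6, whose gene is Errfi1, is an inhibitor of EGF receptor family kinases, among them ERBB2.

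Intensities are given on the linear scale of the deposited values, and log2 fold changes come from limma over all probe sets, with p-values adjusted by Benjamini-Hochberg over the 45037. Calls needed an adjusted p under 0.05 together with a fold change above 1.5. The array medians were close but not equal, between 7.87 and 8.24. Errfi1 checked the labels: it read 76.1, 29.8 and 40.3 in double knockout uteri, 15.1, 15.96 and 255 in Mig-6 d/d uteri, and 454, 564 and 286 in control uteri. The array labelled Mig-6 d/d replicate 3 thus lay close to the lowest control, control replicate 3, at this probe set (1416129_at). At the other Errfi1 probe set (1419816_s_at) Mig-6 d/d replicate 3 read 37.0, above control replicate 3 at 33.7, so these groups overlapped. The other controls read 65.1 and 59.5 there, and the other Mig-6 d/d arrays were at or under 11.15. Whether the probes fall in the deleted part of the gene was not examined. Erbb2 read 18.3, 9.88 and 18.5 in double knockout uteri and 46.6, 39.5 and 44.5 in Mig-6 d/d uteri, with no overlap, against 29.4, 36.7 and 45.7 in control uteri. Control replicate 3 stood apart at Igf1 and at 1 probe set of Igfbp5. It was more than 2-fold below both other controls at 4 of the 26 member probe sets and at 0.462% of all probe sets. These 4 are the probe sets of 1 gene, Igf1. It was more than 2-fold above both at 1 member probe set, of Igfbp5 (1422313_a_at), and at 0.384% of all.

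The windows of 250 bases before the RefSeq start (GRCm38.p6, RefSeq) are shown for the ligand and for the 2 binding proteins that were called. Of the member genes, 9 had such a window, 10 windows in all. The Igf1 and Igfbp3 starts in the table lie inside the annotated spans of these genes, which begin further upstream. Capitals mark a match to a motif, searched on both strands.
Igf1, chr10:87860861-87861110, plus strand: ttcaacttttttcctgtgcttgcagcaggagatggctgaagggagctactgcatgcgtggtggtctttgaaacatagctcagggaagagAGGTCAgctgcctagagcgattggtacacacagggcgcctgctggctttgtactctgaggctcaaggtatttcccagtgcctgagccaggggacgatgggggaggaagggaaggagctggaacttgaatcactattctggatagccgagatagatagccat
Igfbp3, chr11:7213924-7214173, minus strand: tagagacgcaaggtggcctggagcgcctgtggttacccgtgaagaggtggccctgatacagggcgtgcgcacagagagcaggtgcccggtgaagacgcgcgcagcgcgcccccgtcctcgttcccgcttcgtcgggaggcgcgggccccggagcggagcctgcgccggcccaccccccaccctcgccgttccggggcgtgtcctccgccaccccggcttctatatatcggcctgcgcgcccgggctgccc
Igfbp6, chr15:102143936-102144185, plus strand: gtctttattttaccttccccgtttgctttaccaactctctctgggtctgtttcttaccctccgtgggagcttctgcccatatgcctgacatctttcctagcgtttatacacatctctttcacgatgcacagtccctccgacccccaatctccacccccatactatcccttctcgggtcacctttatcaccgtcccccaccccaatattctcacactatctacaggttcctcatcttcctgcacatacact

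The capitals in the Igf1 window are the letters AGGTCA, the half-site of the estrogen response element, 161 to 156 bases before the start. Those letters were in 2 of the 10 member windows, Igf1 and Igf1r, and in 14% of 32851 RefSeq windows of the same length. AGAACA, the half-site shared by progesterone and glucocorticoid receptors, was in 1 of the 10 (Igfbp2) and in 16.1% of all. The FOXO site GTAAACA was in 0 of the 10 and 3.17% of all, and the AP-1 site TGACTCA was in 1 (Igfbp2) and 4.46% of all. The GC box GGGCGG was in 4 of the 10 (Igf1r, Irs1, Irs2 and Igfbp2) and 32.7% of all. The Igfbp3 and Igfbp6 windows held none of the 5 motifs, and differed in base composition, with 73.2% G and C in Igfbp3 and 49.6% in Igfbp6. The other windows held 52.8% (Igf1) to 77.6% (Igf1r) G and C. A match is a description of letters, and no match says only that these letters are not in the window.

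Loss of Mig-6 in the uterus was compared with control first. Igfbp3 and Igfbp6 fell in Mig-6 d/d uteri, and no member rose. The calls were 3 of the 26 member probe sets lower and 0 higher, where 1.09% of all probe sets were called lower and 1.71% higher. Of the 10 genes, read at the probe set of highest mean intensity, 2 were called lower, where 1.8% of all genes were called lower and 2.54% higher. The log2 fold change was negative at 24 of the 26 member probe sets, with a median of -0.40, while it was negative at 55.3% of all probe sets, with a median of -0.02. The 3 Mig-6 d/d arrays lay below the 3 control arrays at 11 of the 26 and above them at 0, where 11.5% of all probe sets were apart in the lower direction and 9.45% in the higher. Some genes gave several of the 11. Read at 1 probe set per gene, the arrays lay below at 6 of the 10 genes and above at 0. The share over all genes was not counted. At an unadjusted p under 0.05, 10 member probe sets were lower and 0 higher. The share of all probe sets at that limit was not counted, so this count has no background.

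Igfbp3 is the main carrier of IGFs in the circulation and also acts locally in tissues. At its first probe set (1423062_at) it read 209, 162 and 205 in Mig-6 d/d uteri, against 356, 319 and 400 in control uteri. Every Mig-6 d/d array lay below every control array, and the means were 192 ± 26.1 and 358 ± 40.3 (SD, n = 3 each). The fall was 1.87-fold (log2 fold change -0.90, SE 0.17, limma adjusted p = 0.0235). The other probe set (1458268_s_at) read 83.1, 64.6 and 79.8 in Mig-6 d/d uteri, against 115, 112 and 129 in control uteri. It fell 1.57-fold (log2 fold change -0.65, SE 0.14, limma adjusted p = 0.0334), and its log2 values and those of the first correlated at r = 0.99 over the 9 arrays. The call at the first probe set was lost without Mig-6 d/d replicate 1, 2 or 3 or control replicate 2 or 3, with limma adjusted p of 0.0508 to 0.0612, and its log2 fold change stayed between -0.99 and -0.79 over all alternatives run. It was also lost with log2(intensity + 16) (limma adjusted p = 0.0544) and by the methods' t-test after adjustment (0.287). The call at the other was lost without any of these 5 and without double knockout replicate 2, with limma adjusted p of 0.0537 to 0.0804.

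Igfbp6, a binding protein that prefers IGF2 over IGF1, read 451, 444 and 363 in Mig-6 d/d uteri, against 682, 805 and 546 in control uteri. The groups did not overlap. It fell 1.61-fold (log2 fold change -0.68, SE 0.16, limma adjusted p = 0.0435). This call was close to the threshold: leaving out any 1 array other than control replicate 3 ended it, with limma adjusted p of 0.0547 to 0.138, and without control replicate 3 the log2 fold change was -0.83 (limma adjusted p = 0.0216). Fitting only the 6 arrays compared (limma adjusted p = 0.0875), log2(intensity + 16) (0.0853), centring each array on its median (0.0554) or array weights (0.0548) ended it as well, as did the methods' t-test after adjustment (0.349).

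Igf1 was not called, and its result rested on 1 control array. At the first probe set (1437401_at) it read 719, 636 and 803 in Mig-6 d/d uteri, against 1674, 1456 and 484 in control uteri. The Mig-6 d/d arrays lay close together, and control replicate 3 lay below all of them while the other controls lay far above. The same order was seen at the other probe sets: 1434413_at read 487, 488 and 514 in Mig-6 d/d uteri and 1132, 1173 and 368 in control uteri. At 1419519_at the values were 162, 226 and 195 in Mig-6 d/d uteri and 624, 397 and 134 in control uteri. At 1452014_a_at they were 159, 186 and 185 in Mig-6 d/d uteri and 505, 534 and 118 in control uteri. The 4 probe sets thus repeat 1 reading of the same RNA, with r between 0.94 and 0.99 over the 9 arrays. Over all arrays the log2 fold changes were -0.56 to -0.85, with limma adjusted p of 0.375 to 0.490. Without control replicate 3 all 4 were called lower, with log2 fold changes of -1.13 (SE 0.13, limma adjusted p = 0.00659), -1.22, -1.37 and -1.56. Nothing in the labels sets that array apart, and the call after leaving it out rests on 2 control arrays. With the array labelled Mig-6 d/d replicate 3 left out too, a choice made after seeing the data, all 4 stayed called lower (limma adjusted p of 0.00896 to 0.0379).

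**Figure D1:**
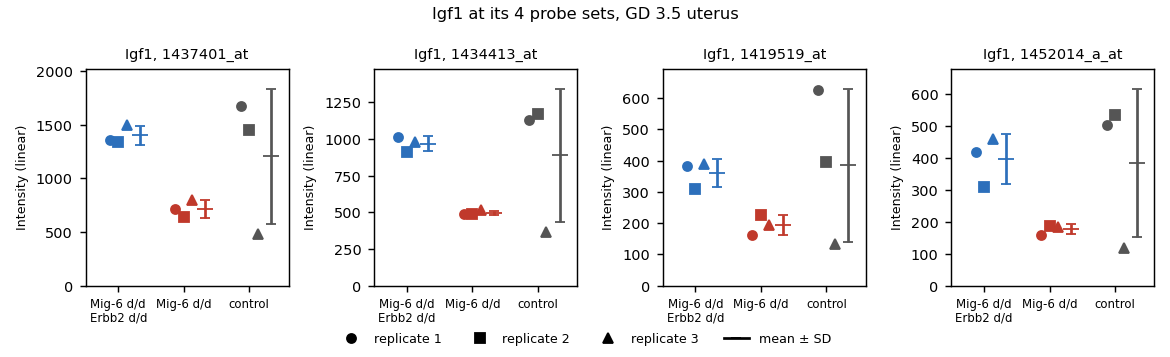
Linear intensity of Igf1 on each array at its 4 probe sets, by group (replicates by symbol; bars are mean ± SD, n = 3). The Mig-6 d/d arrays cluster at about 719 at 1437401_at, and control replicate 3 (484) lies below them while the other controls (1674 and 1456) and the double knockout arrays lie above.

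Control replicate 3 differed from the other controls in other measures too. Errfi1 was lower there than in the other controls at both of its probe sets. Ltf, the estrogen-induced epithelial gene lactotransferrin, read 279 there and 73.9 and 81.5 in control replicates 1 and 2, and the summed intensity of 11 epithelial markers was 5447 there and 3263 and 3031 in the others. In the double knockout, replicate 3 read 369 for Ltf, with 44.0 and 33.3 in replicates 1 and 2. That array had the highest Igf1 of its group (1503). The part of these measures in the Igf1 value of control replicate 3 was not tested.

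Igfbp5, a binding protein that also attaches to the extracellular matrix, was near the threshold at its first probe set (1452114_s_at): 1284, 713 and 1106 in Mig-6 d/d uteri, against 1460, 2014 and 1983 in control uteri. The groups did not overlap, but the change was not called (log2 fold change -0.84, SE 0.24, limma adjusted p = 0.0873). Its other probe set (1422313_a_at) read 57.1, 48.3 and 72.3 in Mig-6 d/d uteri and 63.4, 63.2 and 278 in control uteri, so the difference of means there came from control replicate 3. Igfbp4, a binding protein that inhibits IGF action until it is cleaved by the protease PAPP-A, had log2 fold changes of -0.18 to -0.55 at its 6 probe sets. None was called, and the smallest limma adjusted p was 0.111. At 1423757_x_at Igfbp4 read 289, 262 and 264 in Mig-6 d/d uteri, against 313, 450 and 342 in control uteri, with no overlap. Igfbp2 read 4.27 to 5.76 in Mig-6 d/d uteri and 4.44 to 5.75 in control uteri, all below the median of all probe sets.

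**Figure D2:**
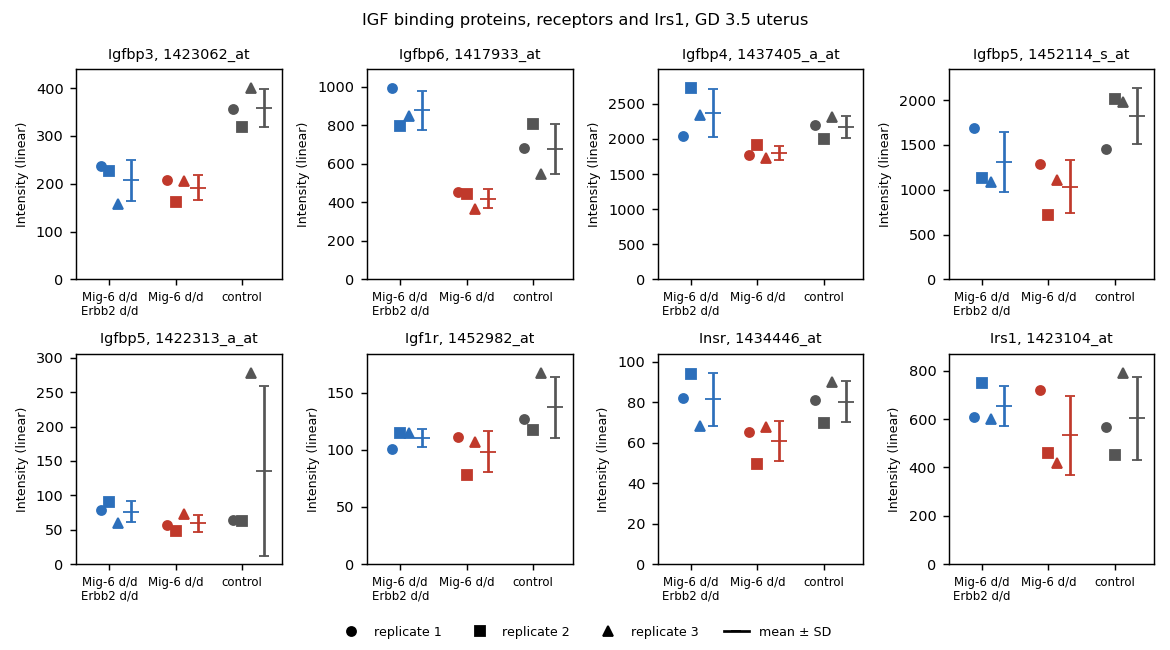
Linear intensity on each array of Igfbp3, Igfbp6, Igfbp4, Igfbp5 (both probe sets), Igf1r, Insr and Irs1, by group (replicates by symbol; bars are mean ± SD, n = 3). Igfbp3 is low in both knockout groups (means of 207 in double knockout and 192 in Mig-6 d/d uteri, against 358 in control uteri), whereas Igfbp6 averages 878 in double knockout, 419 in Mig-6 d/d and 678 in control uteri.

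The receptors were not called. Igf1r at 1452982_at read 111, 77.8 and 107 in Mig-6 d/d uteri, against 127, 117 and 167 in control uteri, with no overlap (log2 fold change -0.48, SE 0.17, limma adjusted p = 0.152). Its other 4 probe sets had log2 fold changes of -0.36 to -0.03. Insr at 1434446_at read 65.3, 49.7 and 67.7 in Mig-6 d/d uteri, against 81.2, 70.0 and 89.9 in control uteri (log2 fold change -0.41, SE 0.16, limma adjusted p = 0.210). The other 2 Insr probe sets were at or under 5.87 on every array. Irs1 read 721, 460 and 420 in Mig-6 d/d uteri and 568, 451 and 790 in control uteri, overlapping groups with a log2 fold change of -0.18 (95% interval -0.70 to 0.34). Irs2 read 6.21 to 7.88 in Mig-6 d/d uteri and 7.45 to 10.3 in control uteri, with a log2 fold change of -0.31 (95% interval -0.66 to 0.05).

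Markers of stroma, smooth muscle, endothelium and epithelium also differed between Mig-6 d/d and control uteri. The summed intensity of the 12 stroma markers was 20630 to 24530 in Mig-6 d/d uteri and 24490 to 28890 in control uteri, with 2 of the 12 called lower and 12 of 12 negative. These stroma sums overlapped: Mig-6 d/d replicate 1 (24525.7) lay just above control replicate 3 (24486.0). The summed intensity of the 9 smooth muscle markers was 8660 to 12060 in Mig-6 d/d uteri and 12790 to 16850 in control uteri, with 0 of the 9 called and 9 of 9 negative. For the 8 endothelium markers the sums were 473 to 567 in Mig-6 d/d uteri and 797 to 928 in control uteri, with 2 called lower. For the 11 epithelium markers measured they were 7945 to 12060 in Mig-6 d/d uteri and 3031 to 5447 in control uteri, with 6 called higher. Leukocyte and macrophage sums overlapped, at 1127 to 1319 in Mig-6 d/d uteri and 1011 to 1307 in control uteri, with 1 called each way. Of 6 gland markers, 0 were called and 5 were negative. Of the adipocyte, mesothelium, and ovary and oviduct markers, 0 were called. All stroma, smooth muscle, endothelium and epithelium markers measured were above the median of all probe sets. In whole tissue, fewer cells of a type and less RNA per cell cannot be told apart, and the part of cell makeup in the member values was not tested.

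The double knockout was then compared with control, to read the members where Erbb2 was deleted as well. No member was called in either direction by limma, where 0.16% of all probe sets were called lower and 0.198% higher. Of all genes, 0.198% were called lower and 0.209% higher at the probe set of highest mean intensity. At an unadjusted p under 0.05, 3 member probe sets were lower and 1 higher, and the methods' t-test without adjustment called 2 lower, both of Igfbp3. The shares of all probe sets at these unadjusted limits were not counted. The log2 fold change was negative at 13 and positive at 13 of the 26, with a median of -0.00 (0.00 over all probe sets). The double knockout arrays lay below the control arrays at 3 member probe sets and above at 1, where 5.82% of all were apart in the lower direction and 5.9% in the higher.

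Of these 3 probe sets, 2 were those of Igfbp3. The first read 236, 226 and 158 in double knockout uteri, against 356, 319 and 400 in control uteri. The difference was close in size to that of Mig-6 d/d uteri (log2 fold change -0.81, SE 0.17), with a limma adjusted p of 0.115. The other read 85.9, 76.8 and 64.9 in double knockout uteri, against 115, 112 and 129 in control uteri (log2 fold change -0.65, limma adjusted p = 0.113). Both comparisons use the same control arrays, so the like values are not independent. Both knockout groups carried cre and the controls did not, so cre and the deletions cannot be told apart here. The third was Igf1r at 1452982_at, with 101, 114 and 115 in double knockout uteri (log2 fold change -0.30, limma adjusted p = 0.754). The 1 that lay above was Igfbp4 at 1437406_x_at, with 2123, 2292 and 2024 in double knockout uteri and 1890, 1846 and 1910 in control uteri (log2 fold change 0.19, limma adjusted p = 0.679).

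Igf1 read 1361, 1341 and 1503 in double knockout uteri at its first probe set, in the range of control replicates 1 and 2 or a little below it and far above control replicate 3. The log2 fold change was 0.41 (95% interval -0.42 to 1.23), and it was -0.16 without control replicate 3. At the other Igf1 probe sets every double knockout array lay below control replicates 1 and 2 and above control replicate 3. Double knockout uteri read 1011, 911 and 980 at 1434413_at, 382, 310 and 388 at 1419519_at, and 420, 309 and 460 at 1452014_a_at. The log2 fold changes there were 0.295, 0.159 and 0.301, and -0.254, -0.473 and -0.41 without control replicate 3, none called. Igfbp6 read 991, 796 and 846 in double knockout uteri, against 682, 805 and 546 in control uteri (log2 fold change 0.38, SE 0.16, limma adjusted p = 0.579). Igfbp5 at its first probe set read 1692, 1135 and 1088 in double knockout uteri, against 1460, 2014 and 1983 in control uteri, with overlap (log2 fold change -0.49, limma adjusted p = 0.693).

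The double knockout was last compared with Mig-6 d/d, to read how the members differed between these groups. Igfbp6 was higher in double knockout uteri, and no other member was called. This was 1 of the 26 probe sets called higher and 0 lower, where 2.38% of all probe sets were called higher and 2.75% lower. It was 1 of the 10 genes, where 3.73% of all genes were called higher and 3.75% lower. The log2 fold change was positive at 23 of the 26, with a median of 0.36 (0.02 over all probe sets). The double knockout arrays lay above the Mig-6 d/d arrays at 11 of the 26 and below them at 0, where 14.8% of all probe sets were apart in the higher direction and 12% in the lower. Igf1 and Igfbp4 each gave several of the 11. Read at 1 probe set per gene, the arrays lay above at 4 of the 10 genes and below at 0. The share over all genes was not counted. At an unadjusted p under 0.05, 10 member probe sets were higher and 0 lower, and the share of all probe sets at that limit was not counted. This comparison shares the Mig-6 d/d arrays with the first, so opposite signs in the 2 comparisons are tied to those arrays.

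Igfbp6 read 991, 796 and 846 in double knockout uteri, against 451, 444 and 363 in Mig-6 d/d uteri. The lowest double knockout array was well above the highest Mig-6 d/d array. The rise was 2.095-fold (log2 fold change 1.07, SE 0.16, limma adjusted p = 0.00524). It stayed called without any 1 of the 9 arrays (log2 fold changes of 0.97 to 1.13), and among the alternatives it was lost only under the methods' t-test after Benjamini-Hochberg (adjusted p = 0.0991).

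Igf1 at its first probe set read 1361, 1341 and 1503 in double knockout uteri, against 719, 636 and 803 in Mig-6 d/d uteri. The arrays of the 2 groups did not overlap at any of the 4 probe sets, and the log2 fold changes were 0.97, 0.96, 0.90 and 1.15. None was called over all 9 arrays (limma adjusted p of 0.152 to 0.290), where the spread is shared with the control arrays. Fitting only the 6 arrays compared called all 4, with a limma adjusted p of 0.00342 at the first, as did leaving out control replicate 3 (limma adjusted p of 0.00109 to 0.0216). With the array labelled Mig-6 d/d replicate 3 left out as well, 3 of the 4 stayed called, and 1419519_at had a limma adjusted p of 0.0596.

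Igfbp4 at 1437406_x_at read 2123, 2292 and 2024 in double knockout uteri, against 1672, 1725 and 1604 in Mig-6 d/d uteri. The difference passed the adjusted p (0.0374 by limma) but at 1.29-fold was under the fold limit. All 6 Igfbp4 probe sets had log2 fold changes between 0.36 and 0.56, and 4 of the 6 had no overlap. Insr at 1434446_at read 82.0, 94.0 and 68.1 in double knockout uteri and 65.3, 49.7 and 67.7 in Mig-6 d/d uteri (log2 fold change 0.42, limma adjusted p = 0.167). Igf1r at 1426565_at read 31.0, 33.5 and 33.4 in double knockout uteri and 28.8, 22.1 and 27.0 in Mig-6 d/d uteri (log2 fold change 0.34, limma adjusted p = 0.158). Igfbp3 did not separate these groups: its log2 fold change was 0.10 (95% interval -0.28 to 0.47) at the first probe set and -0.00 (95% interval -0.30 to 0.30) at the other. Irs1 (log2 fold change 0.33, 95% interval -0.20 to 0.85) and Igfbp5 (0.35, 95% interval -0.18 to 0.88, at the first probe set) overlapped.

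**Figure D3:**
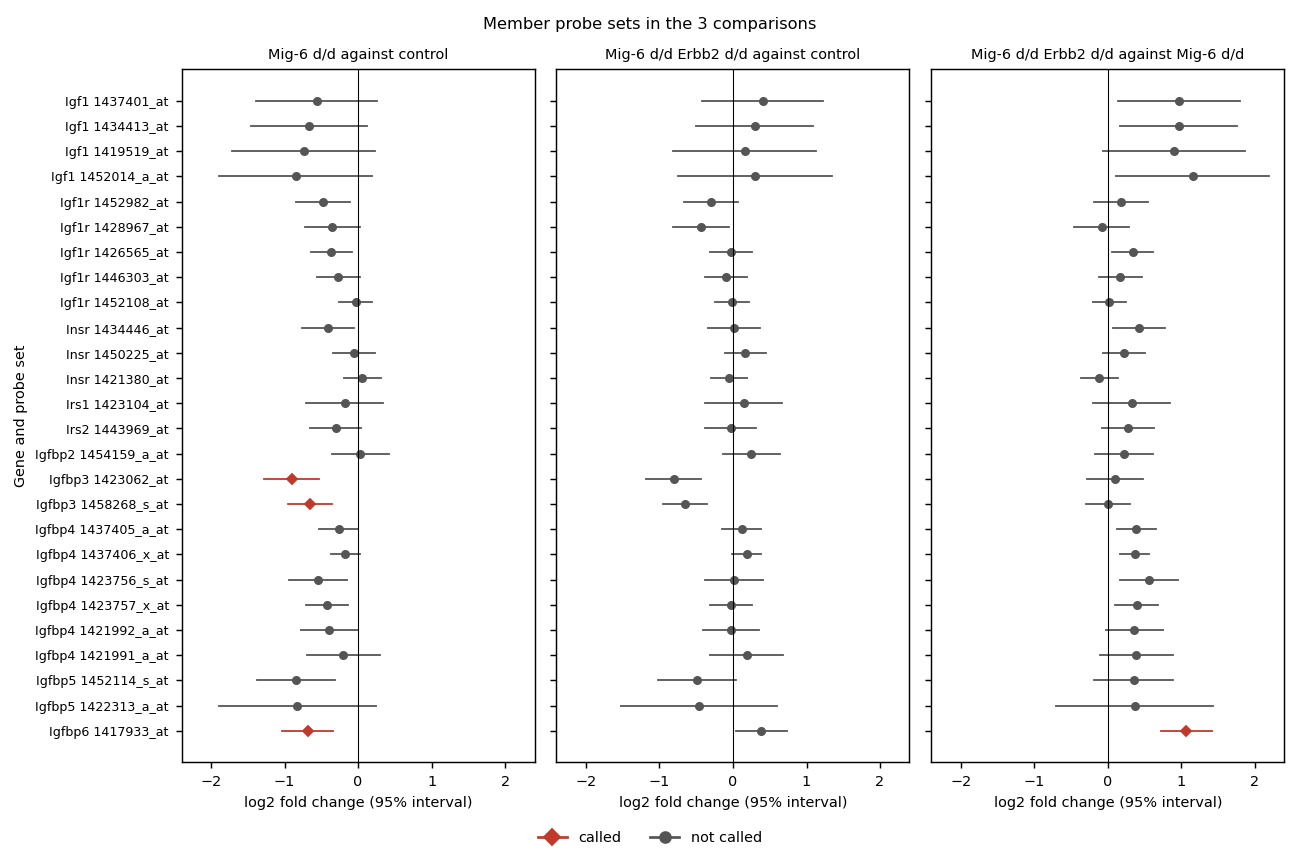
Log2 fold change with its 95% interval (limma, all 9 arrays) of the 26 member probe sets in the 3 comparisons, the group named first over the other; diamonds mark called probe sets. The calls are both Igfbp3 probe sets and Igfbp6 in Mig-6 d/d against control, none in the double knockout against control, and Igfbp6 between double knockout and Mig-6 d/d uteri.

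Markers of epithelium, stroma, smooth muscle and endothelium moved in this comparison too. The sums were 2760 to 3895 in double knockout uteri and 7945 to 12060 in Mig-6 d/d uteri for epithelium (8 of 11 called lower). For stroma they were 27830 to 29080 in double knockout uteri and 20630 to 24530 in Mig-6 d/d uteri, with 2 of 12 called higher. For smooth muscle they were 15510 to 19140 in double knockout uteri and 8660 to 12060 in Mig-6 d/d uteri, with 4 of 9 called higher. Endothelium markers were called higher at 5 of 8. The part of these shifts in the Igfbp6 and Igf1 values was not tested. Against control, the double knockout had 0 markers called in each of these 4 lists.

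**Figure D4:**
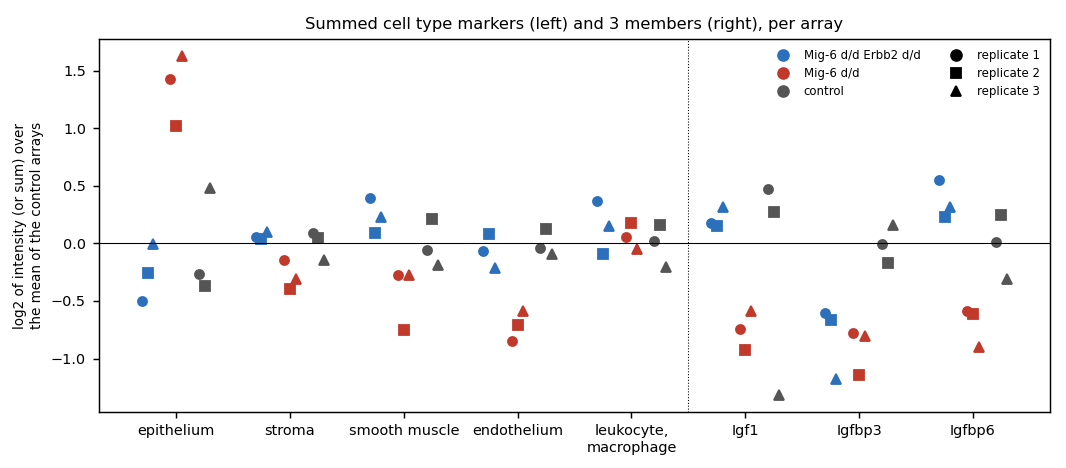
Log2 of each array's summed marker intensity (5 cell type lists, left) or intensity (Igf1, Igfbp3 and Igfbp6 at the first probe set, right) over the mean of the control arrays; colour is the group and symbol the replicate. Mig-6 d/d arrays are high for epithelium (sums of 7945 to 12060) and low for stroma, smooth muscle and endothelium, and control replicate 3 is the lowest array for Igf1 (484).

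Among themselves the members did not vary as 1 block. Over the 9 arrays, log2 values at the first probe sets correlated most between Igfbp3 and Igfbp5 (r = 0.83), Irs1 and Irs2 (0.80), Irs2 and Insr (0.77) and Igfbp3 and Igf1r (0.77). Igf1 went with Igfbp6 (r = 0.76) and hardly with Igfbp3 (0.01) or Igf1r (-0.06). These values are descriptions over arrays that share groups. Control replicate 3 was the lowest array for Igf1 (484) but the highest control for Igfbp3 (400) and Igf1r (167). The r of Igf1 with Igfbp3 and Igf1r includes that array, and r without it was not computed. The non-member genes with the highest correlation to Igf1, of 11963 compared, were Selp (r = 0.97), Pdia5 (0.96) and Maob (0.95). For Igfbp3 at its first probe set they were Pln, Keap1 and Kremen1 (r = 0.95 each). For Igfbp6 they were Podxl2 and Copz2 (0.98 each) and Cd248 (0.98). Maob, the gene of a monoamine oxidase, shared the low control array: it read 864, 717 and 118 in control uteri. Selp (29.1, 27.5 and 17.7 in control uteri) and Pdia5 (156, 149 and 114) shared it as well.

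Of the other genes of the IGF system, 15 of 16 listed were measured. Of these, 1 was called lower and 1 higher in Mig-6 d/d uteri, 0 in the double knockout against control, and 1 lower and 1 higher in the double knockout relative to Mig-6 d/d. Igf2, the second IGF ligand, read 32.0, 22.9 and 38.1 in Mig-6 d/d uteri, against 51.1, 67.8 and 64.4 in control uteri. It fell 2.00-fold (SE 0.22 on the log2 scale, limma adjusted p = 0.0392), and the call was lost in 6 of the 9 leave-outs. The other Igf2 probe set (1415931_at) was at or under 4.75 on every array, with a log2 fold change of -0.04. Stc2, stanniocalcin 2, an inhibitor of the protease PAPP-A that cleaves binding proteins, read 80.3, 37.5 and 70.3 in Mig-6 d/d uteri, against 20.3, 18.7 and 27.1 in control uteri. It rose 2.74-fold (log2 fold change 1.46, SE 0.30, limma adjusted p = 0.0328), and read 17.6, 15.3 and 28.2 in double knockout uteri, where it was lower than in Mig-6 d/d (log2 fold change -1.60, limma adjusted p = 0.0140). Each of these Stc2 calls was lost in 4 of 9 leave-outs. At 1419503_at Stc2 was called higher in Mig-6 d/d against control (limma adjusted p = 0.0395, lost in 6 of 9 leave-outs). It was not called there between the knockouts (limma adjusted p = 0.0523). At 1445186_at it was called in neither (limma adjusted p = 0.140 and 0.211). Stc1, a relative of Stc2, read 20.0, 23.8 and 22.1 in double knockout uteri, against 16.8, 11.1 and 13.3 in Mig-6 d/d uteri (log2 fold change 0.70, limma adjusted p = 0.0265, lost in 5 of 9 leave-outs). The other Stc1 probe set (1421984_at) overlapped, with a log2 fold change of 0.13.

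Igfbp7, a related protein with low affinity for IGFs, was not called at its first probe set, with 2825, 2412 and 2217 in Mig-6 d/d uteri and 3621, 3586 and 2849 in control uteri (log2 fold change -0.43, limma adjusted p = 0.106). At another probe set (1423585_at) it read 73.8, 64.5 and 64.0 in Mig-6 d/d uteri, against 112, 120 and 113 in control uteri. There it fell 1.71-fold (log2 fold change -0.77, SE 0.11, limma adjusted p = 0.0104), and the call held without any 1 of the 9 arrays. The remaining probe set (1437804_at) read 16.1, 14.3 and 14.5 in Mig-6 d/d uteri and 12.97, 18.3 and 18.6 in control uteri, with overlap (log2 fold change -0.13, limma adjusted p = 0.734). The called probe set is thus 1 of 3 and was singled out after its values were seen.

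**Figure D5:**
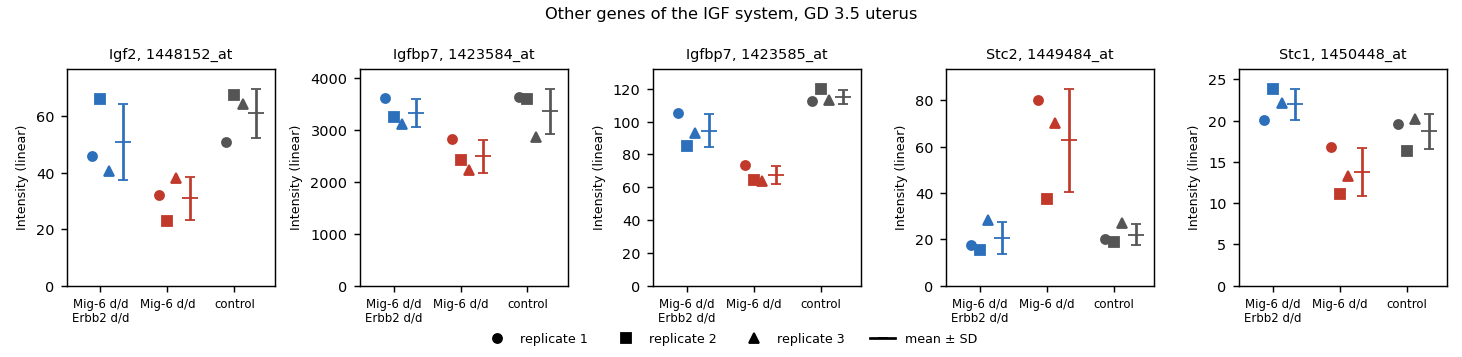
Linear intensity on each array of Igf2, Igfbp7 (2 of its 3 probe sets), Stc2 and Stc1, by group (replicates by symbol; bars are mean ± SD, n = 3). Stc2 is high in Mig-6 d/d uteri (37.5 to 80.3) and at most 28.2 in the other groups, while Igf2 is lowest in Mig-6 d/d uteri (22.9 to 38.1).

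The signalling genes downstream were counted at the probe set of highest mean intensity, for which the shares over all genes are given above with each comparison. Of 27 measured genes of the PI3K, AKT and mTOR branch, 0 were called in Mig-6 d/d or double knockout uteri against control. Between the knockouts 1 was, Tsc2, a brake on mTOR, which read 85.4, 93.0 and 95.3 in double knockout uteri and 52.7, 49.5 and 59.0 in Mig-6 d/d uteri (log2 fold change 0.77, SE 0.11, limma adjusted p = 0.00549, held in all 9 leave-outs). The median log2 fold changes of that list were -0.17 in Mig-6 d/d and -0.04 in double knockout uteri against control, and 0.14 between the knockouts. Of 23 measured receptor adaptors and inhibitors, 0 were called in either knockout against control. Between the knockouts the adaptor Shc1 (log2 fold change 0.65, limma adjusted p = 0.0446) and the inhibitor Socs1 (0.68, limma adjusted p = 0.0479) were higher and the phosphatase Ptprf was lower (-1.12, limma adjusted p = 0.0199) in double knockout uteri. These 3 were lost in 7, 8 and 3 of 9 leave-outs for Shc1, Socs1 and Ptprf. Of 20 FOXO target genes, which insulin and IGF signalling holds down in other tissues, 1 was called, Pik3ip1, lower in Mig-6 d/d uteri (35.8, 43.2 and 38.2, against 50.2, 73.0 and 85.5 in control uteri, limma adjusted p = 0.0481, lost in 8 of 9 leave-outs).

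None of the 6 measured regulators of Igf1 transcription was called in any comparison. Pgr, the progesterone receptor gene that also drives cre here, read 873, 798 and 588 in Mig-6 d/d uteri, against 1065, 1107 and 1613 in control uteri, with no overlap (log2 fold change -0.74, SE 0.20, limma adjusted p = 0.0734). In double knockout uteri it read 729, 791 and 986 (log2 fold change against control -0.58, limma adjusted p = 0.448). At its other probe sets the log2 fold change of Mig-6 d/d against control was -0.51 (1421444_at, limma adjusted p = 0.228) and -0.52 (1455772_at, 0.279). The groups overlapped at 1455772_at. Cre-carrying groups lack part of 1 Pgr allele by design, so this and an effect of the deletions on Pgr cannot be told apart. Jak2, a kinase of the growth hormone and prolactin receptors, had the next smallest p over the comparisons, with -0.33 on the log2 scale for double knockout over Mig-6 d/d uteri (limma adjusted p = 0.271) and 0.29 for Mig-6 d/d uteri against control (0.379). Esr1, the estrogen receptor gene, read 1425, 1327 and 1486 in double knockout uteri, 2051, 1490 and 1664 in Mig-6 d/d uteri, and 1638, 1555 and 1975 in control uteri at its first probe set (1460591_at). The double knockout arrays lay below those of both other groups, with log2 fold changes of -0.29 against Mig-6 d/d (limma adjusted p = 0.283) and -0.28 against control (0.700), while that of Mig-6 d/d against control was 0.01 (0.993). At 1435663_at Esr1 read 322, 299 and 302 in double knockout uteri, 626, 513 and 447 in Mig-6 d/d uteri, and 582, 324 and 513 in control uteri, again with the double knockout arrays below both other groups. The log2 fold changes there were -0.77 against Mig-6 d/d (SE 0.20, limma adjusted p = 0.0504) and -0.58 against control (0.468).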

How the data were processed

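Whole uterus RNA was hybridised by the authors to Affymetrix Mouse Genome 430 2.0 arrays. The deposited table holds 1 linear intensity per probe set and array, normalised by the authors by RMA (no version given). Values ran from 2.11 to 11548.76, and log2 was taken here. No scanner file or detection call was used here, so background cannot be judged for a probe set, and precision is limited by 3 arrays per group. Probe sets were named from the platform annotation: 34945 had 1 symbol, 932 several and 9160 none. Entrez identifiers matched a RefSeq table (GRCm38.p6) for 34741 and changed 0 symbols. The authors' methods give a two-sample comparison with a 1.5-fold limit and do not name the test used for the arrays. The test called the methods' t-test here is an unpaired, equal-variance t-test of log2 values.

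All 9 arrays were fitted in 1 model (R 4.3.3, limma 3.58.1, statmod 1.5.0), tested on simulated data before use, with 3 comparisons. Every member probe set was reported, each gene first at its probe set of highest mean intensity. Of the other lists, genes called at that probe set were named or, with none called, the 2 of smallest p, and for likeness the 3 genes of highest r. Igfbp7, Esr1 and Ltf were named outside this rule, after their values were seen. The members and lists were chosen with earlier results of these data known. The same replicate number does not pair arrays. Alternatives tried were leaving out dim probe sets, 2 normalisations, a trended robust variance, array weights, the 6 arrays compared alone, a replicate block, each array left out, no fold limit, the methods' t-test, 1 probe set per gene and log2(intensity + 16). Correlations are Pearson's r of log2 values. Sequences are RefSeq's, and Insr had no window.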

Additional observations from a re-analysis of the deposited data

How the results depend on the processing

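Member calls in Mig-6 d/d against control numbered 3, and 0 to 5 with 1 array left out: 5 without control replicate 3 (the 4 Igf1 probe sets and Igfbp6), 1 without double knockout replicate 2 and 0 without control replicate 2 or Mig-6 d/d replicate 1, 2 or 3. They numbered 0 with log2(intensity + 16), 0 by the methods' t-test after adjustment and 1 with the 6 arrays alone. For the double knockout against control the 0 calls became 2 only by the methods' t-test without adjustment. Between double knockout and Mig-6 d/d uteri the 1 call became 5 with the 6 arrays alone, 5 by the methods' t-test without adjustment, 2 with no fold limit, 1 to 5 with 1 array left out (5 without control replicate 3) and 4 without the third replicate of both control and Mig-6 d/d. After adjustment the methods' t-test also called 1 there, an Igf1 probe set and not Igfbp6.

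A replicate block gave the same counts, 3, 0 and 1. Same-numbered arrays correlated at -0.13 to 0.20 in their deviations from group means and differently numbered ones at -0.30 to 0.33, so the numbers do not pair arrays.

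Of the log2 fold changes of the 10 genes under the alternatives, 576 kept direction and side of the threshold, 23 fell short of it, 8 newly passed and 17 changed sign. None of those that changed sign was called. With array weights, Igfbp2 in Mig-6 d/d against control was -0.043 and Insr in the double knockout against control -0.0050. With arrays left out (the third of control and of Mig-6 d/d together included), log2 fold changes ranged in Mig-6 d/d against control -0.42 to 0.19 for Irs1, -0.058 to 0.26 for Igfbp2. They ranged in the double knockout against control -0.16 to 0.74 for Igf1, -0.097 to 0.14 for Insr, -0.045 to 0.36 for Irs1, -0.12 to 0.11 for Irs2. They ranged in double knockout over Mig-6 d/d uteri -0.022 to 0.28 for Igfbp3. The cause was not tested. Irs2 and Igfbp2 were not tested with dim probe sets left out.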
